A study of Homo sapiens with 24 samples.

Results

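SHISA2, 1 of 23106 gene symbols counted in 24 RNA-seq libraries and 1 of 11735 with enough counts to be tested, was chosen as an abundant gene that is higher with ITE at both oxygen levels. It was thus chosen by its ITE contrasts, normoxia + ITE against normoxia + DMSO and hypoxia + ITE against hypoxia + DMSO. These are given below as a description, without a test, and only the effect of oxygen on SHISA2 was tested. The cells were RCC4+VHL, a human renal cell carcinoma line that lacks functional von Hippel-Lindau protein (VHL) and was stably transfected with a VHL expression vector, so that every group carried the transgene and came from a clonal derivative. Cells grown in phenol red-free medium with charcoal-treated serum were kept in normoxia (21% oxygen) or hypoxia (0.5% oxygen) for 6 h, with 100 nM ITE, an indole-based ligand of the aryl hydrocarbon receptor (AHR), or with 0.1% DMSO, its vehicle. Each oxygen level was combined with each agent, which gave 4 groups (normoxia + DMSO and normoxia + ITE, then hypoxia with DMSO or with ITE) that had 6 independent replicates each, and the design addressed how far the hypoxia-inducible factor (HIF) and AHR pathways interfere with each other.

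Shisa proteins span the membrane once and were first described in Xenopus, where the founding member held immature Frizzled and FGF receptors in the endoplasmic reticulum and so lowered the response of the cell to Wnt and FGF ligands. AHR is a ligand-activated transcription factor that pairs with ARNT and binds DNA with a GCGTG core. The oxygen-regulated HIF-α subunits share ARNT as their partner and bind a core of the form ACGTG or GCGTG. CYP1B1, TIPARP and ALDH1A3 served as reference genes for ITE. DDIT4, PFKFB4 and CA9 were named as reference genes for hypoxia, and CA9 was at 0 in 23 of 24 libraries.

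The SHISA2 gene (ENSG00000180730.5_7) lies on the minus strand of chromosome 13 in GRCh37, chr13:26618735-26626154, and has 2 exons. Exon 1 (chr13:26624780-26626154) holds the 5′ UTR of 1041 bases and 334 coding bases. Exon 2 (chr13:26618735-26621204) holds 551 coding bases and the 3′ UTR of 1919 bases. The 250 bases before the start, chr13:26626155-26626404 on the minus strand, are identical in the RefSeq promoter table (GRCh38.p14) and in the GRCh37 genome, and are shown first because they are the proximal promoter of the gene. They contained no GCGTG and no ACGTG on either strand, so no letter is in capitals. Of 35116 RefSeq promoters, 32.2% held a GCGTG in these 250 bases and 18.5% an ACGTG.
proximal promoter: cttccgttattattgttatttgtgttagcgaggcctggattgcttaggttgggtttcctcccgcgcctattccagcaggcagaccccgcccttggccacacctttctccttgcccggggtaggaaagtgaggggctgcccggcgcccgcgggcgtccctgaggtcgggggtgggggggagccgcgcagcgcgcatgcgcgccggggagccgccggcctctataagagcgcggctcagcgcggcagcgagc

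Within 2000 bases before the start there were 3 GCGTG cores, all on the strand of the gene, at positions -1699, -1320 and -462 from the annotated start, and no ACGTG on either strand. The stretches of 55 bases around them are shown because GCGTG is the core that both AHR with ARNT and HIF can bind. They are chr13:26627824-26627878, chr13:26627445-26627499 and chr13:26626587-26626641 on the minus strand of GRCh37, printed 5′ to 3′ with the core in capitals.
core at -1699: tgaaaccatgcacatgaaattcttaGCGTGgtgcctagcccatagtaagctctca
core at -1320: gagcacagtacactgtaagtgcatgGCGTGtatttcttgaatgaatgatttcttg
core at -462: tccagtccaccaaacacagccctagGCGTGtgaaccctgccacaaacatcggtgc

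The cores at -1699 and -1320 also matched the longer form TNGCGTG, which contains GCGTG and so counts the same positions again. The cores at -1320 and -462 fall inside LINC00415, a non-coding RNA gene on the same strand (chr13:26626414-26627523) that ends 259 bases before the SHISA2 start and was not analysed here. Cores of this kind are common. Of 11433 tested genes with coordinates, 88.4% held at least 1 GCGTG in the same window, with a median of 3, and 72.0% held an ACGTG. At least 1 TNGCGTG was present in 34.8% of the windows and at least 2 in 7.83%. A match describes the letters only, and binding was not measured in these libraries.

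Library totals ranged from 770094 to 93851342 counts, with a median of 7981993, and the 2 shallowest libraries were hypoxia + DMSO replicate 2 (770094) and hypoxia + ITE replicate 1 (1357702). DDIT4, a stress-induced inhibitor of mTORC1 signalling, was 3.53 higher on the log2 scale in hypoxia + DMSO than in normoxia + DMSO (SE 0.17, edgeR adjusted p = 8.14e-15), and PFKFB4, a regulator of glycolytic flux, was 3.41 higher (SE 0.19, adjusted p = 4.29e-13). Of 12 renal epithelial markers, 10 exceeded a mean of 1 CPM (counts-per-million). CA9, a HIF target and a marker of clear cell carcinoma, was at 0 in 23 of 24 libraries, and the epithelial cadherin CDH1 stayed below 1 CPM in every group mean. None of 5 leukocyte, 4 endothelial or 3 hepatocyte markers and 2 of 4 fibroblast markers (COL1A1 and PDGFRB) exceeded a mean of 1 CPM. The 4 fibroblast markers summed to 94.6 CPM in normoxia + DMSO replicate 4 and to between 18.7 and 51.6 CPM in the other 23 libraries. The 4 endothelial markers summed to 3.83 CPM in the same library and to at most 0.826 CPM in the others. Its sum of the 5 leukocyte markers, 0.884 CPM, was also the highest. SHISA2 was at 206 CPM in normoxia + DMSO replicate 4, within the range of its group. The 12 renal epithelial markers summed to 5025 CPM in hypoxia + ITE replicate 6 and to between 1455 and 2446 CPM in the other 23 libraries, and VHL averaged 293 ± 205 CPM in hypoxia + ITE against 175 to 185 CPM in the other groups. SHISA2 in that library was at 458 CPM, within the range of its group.

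SHISA2 was an abundant transcript in all 24 libraries. Values are CPM scaled by the trimmed mean of M-values (TMM), and the counts behind them ran from 135 to 41521. In normoxia + DMSO the lowest, median and highest library had 185, 230 and 276 CPM (mean 233 ± 39.9, SD, n = 6). With ITE in normoxia these were 339, 401 and 445 CPM (mean 397 ± 36.8, n = 6). The highest vehicle library therefore lay below the lowest ITE library, and the spread with ITE was no wider than without it.

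In hypoxia + DMSO the lowest, median and highest library had 186, 249 and 279 CPM (mean 243 ± 32.8, SD, n = 6). In hypoxia + ITE they had 300, 437 and 607 CPM (mean 442 ± 100, n = 6). Again no vehicle library reached the level of any ITE library, and all 12 ITE libraries were above all 12 DMSO libraries across both oxygen levels. The oxygen groups, by contrast, overlapped widely, with and without ITE.

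**Figure D1:**
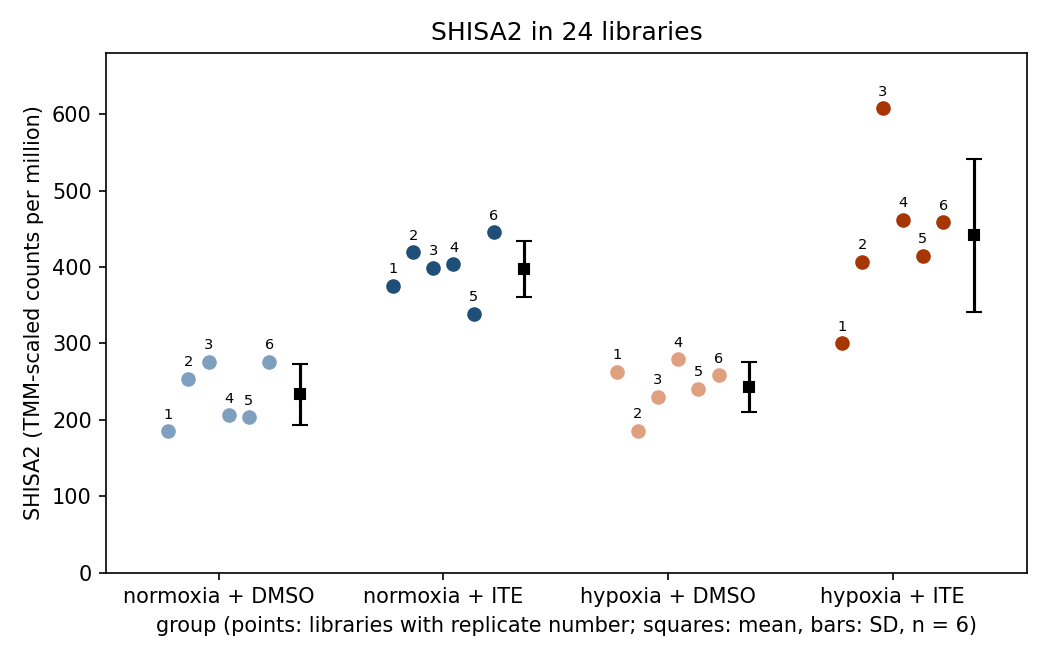
SHISA2 in TMM-scaled CPM (vertical axis) in each library of the 4 groups (horizontal axis). Points are libraries with their replicate number, and the squares and bars are the mean and SD of 6. The 12 ITE libraries lie between 300 and 607 CPM and the 12 DMSO libraries between 185 and 279 CPM.

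The lowest library of each hypoxia group was its shallowest. Hypoxia + DMSO replicate 2 had 135 SHISA2 counts, or 186 CPM with an exact 95% Poisson interval of 156 to 220, and hypoxia + ITE replicate 1 had 404 counts, or 300 CPM with an interval of 272 to 331. These intervals cover counting error only. The second of them overlapped that of the highest vehicle library in hypoxia, replicate 4 at 279 CPM (265 to 294), so the gap between the hypoxia groups was within counting error at its edge. The highest library, hypoxia + ITE replicate 3 at 607 CPM, had a sample quality weight of 0.173 in limma, the second lowest of the 24 (the lowest was 0.0723, in hypoxia + ITE replicate 6). The part of library quality in its SHISA2 level was not tested.

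TMM scaling moved individual libraries. It raised hypoxia + ITE replicate 6 by a factor of 1.37 and hypoxia + ITE replicate 3 by 1.13, the 2 largest factors of the 24, and lowered normoxia + DMSO replicate 3 by a factor of 0.921. With CPM computed on the plain library total, SHISA2 ran from 190 to 299 in normoxia + DMSO, 353 to 455 in normoxia + ITE, 175 to 275 in hypoxia + DMSO and 298 to 536 in hypoxia + ITE. Without TMM the ITE and DMSO groups still did not overlap within either oxygen level, but the lowest ITE library in hypoxia (298) fell just below the highest DMSO library in normoxia (replicate 3, 299).

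Per kilobase of its 3845 bases of exon, SHISA2 stood at 60.7 ± 10.4 CPM per kb in normoxia + DMSO, 103 ± 9.57 in normoxia + ITE, 63.1 ± 8.54 in hypoxia + DMSO and 115 ± 26.0 in hypoxia + ITE (SD, n = 6). On this per-length scale its median rank among 11433 genes was 669 in normoxia + DMSO and 675 in hypoxia + DMSO. With ITE it was 358 in normoxia and 348 in hypoxia. The order of the group levels thus ran from normoxia + DMSO through hypoxia + DMSO and normoxia + ITE to hypoxia + ITE, and in this order only the step from hypoxia + DMSO to normoxia + ITE was larger than the spread within the groups.

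ITE was accompanied by a SHISA2 level 1.70-fold higher in normoxia (log2 fold change 0.77, SE 0.14, 95% interval 0.49 to 1.05) and 1.82-fold higher in hypoxia (0.86, SE 0.14, 0.58 to 1.14). These contrasts chose the gene, so no p-value is given for them. In the background, 6 of 11735 genes (0.0511%) passed an edgeR adjusted p of 0.05 with ITE in normoxia and 7 (0.0597%) in hypoxia, all of them higher with ITE. CYP1B1, ALDH1A3 and SLC7A5 were among them at both oxygen levels. Groups that did not overlap and were higher with ITE occurred for 56 genes (0.477%) in normoxia, for 18 (0.153%) in hypoxia and for 5 (0.0426%) at both, namely ALDH1A3, CYP1B1, SEPHS1, SHISA2 and SLC7A5. Because the rule used these contrasts, nothing is read from the place of SHISA2 among them.

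Replicate numbers name the libraries, and same-numbered libraries were alike only in part. Of the 6 correlations of deviations from the group means, 5 exceeded 0.1 between the normoxia groups and 2 between the hypoxia groups. The main fit did not use the numbers as pairs. Taken by number all the same, SHISA2 was higher with ITE in 6 of 6 pairs in normoxia, by 0.53 to 1.02 on the log2 scale with a median of 0.73. In hypoxia it was higher in 6 of 6 pairs, by 0.19 to 1.40 with a median of 0.81, a wider range. The smallest of these differences was in pair 1, which holds the shallow hypoxia + ITE library, and the largest was in pair 3. Leaving out hypoxia + ITE replicate 3 gave 0.75 for ITE in hypoxia, and leaving out replicate 1 gave 0.95.

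In fits restricted to the 12 libraries of one oxygen level the ITE estimates of SHISA2 were 0.76 in normoxia (SE 0.097) and 0.86 in hypoxia (SE 0.16), against standard errors of 0.14 for both in the fit of all 24. With each of the 24 libraries left out in turn, the estimate in normoxia ran from 0.71 to 0.82.

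**Figure D2:**
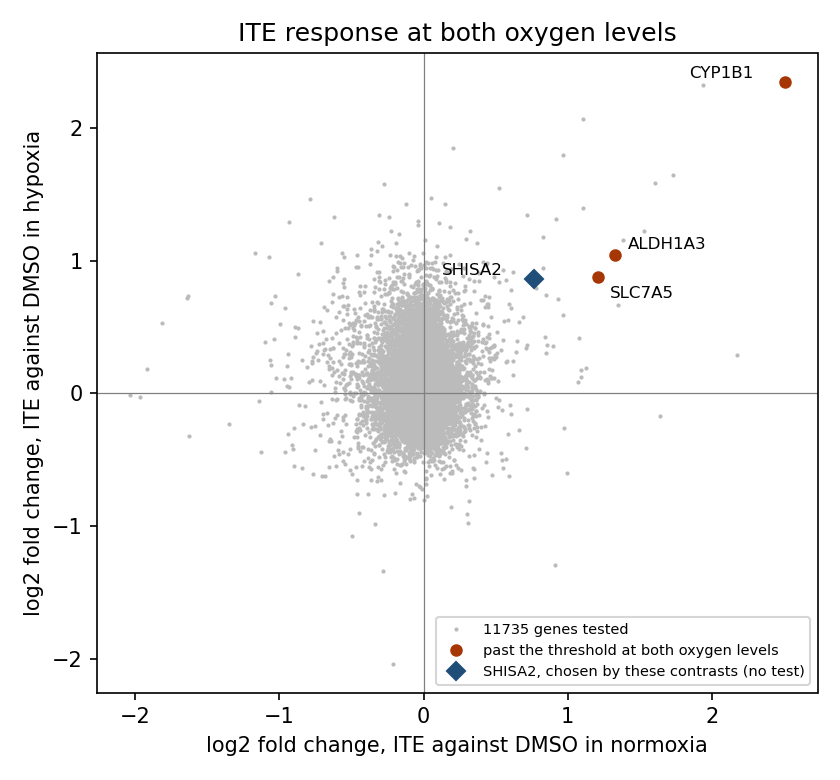
Log2 fold change with ITE against DMSO in normoxia (horizontal axis) and in hypoxia (vertical axis) for 11735 genes (grey), with SHISA2 as a blue diamond and 3 genes past an adjusted p of 0.05 at both oxygen levels in red. The 2 axes share no library. SHISA2 lies at 0.77 and 0.86, closer to the bulk of the genes than CYP1B1 at 2.51 and 2.35.

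The ITE estimates of SHISA2 were smaller than those of CYP1B1 and ALDH1A3 at both oxygen levels, and its starting level per length was higher. In normoxia + DMSO it stood at 60.7 CPM per kb, against 9.42 for CYP1B1, 10.1 for TIPARP, 2.24 for ALDH1A3 and 119 for SLC7A5. CYP1B1, a cytochrome P450 and classical AHR target, went from 56.7 ± 7.75 to 322 ± 53.0 CPM with ITE in normoxia and from 47.2 ± 13.4 to 236 ± 73.4 CPM in hypoxia (SD, n = 6). Its log2 fold changes were 2.51 (SE 0.20, edgeR adjusted p = 7.64e-09) and 2.35 (SE 0.21, adjusted p = 6.18e-08). ALDH1A3, an enzyme of retinoic acid synthesis, rose by 1.33 (SE 0.15, adjusted p = 3.54e-06) and 1.04 (SE 0.16, adjusted p = 0.00158). SLC7A5, a subunit of an amino acid transporter that imports tryptophan among others, rose by 1.21 (SE 0.11, adjusted p = 1.56e-07) and 0.88 (SE 0.11, adjusted p = 0.000122).

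TIPARP, an ADP-ribosyltransferase that represses AHR, rose by 1.35 in normoxia (SE 0.17, adjusted p = 4.77e-05) and did not pass in hypoxia (0.67, SE 0.18, adjusted p = 0.494). The estimate in hypoxia was below that in normoxia for CYP1B1, ALDH1A3, SLC7A5, TIPARP and BBS12 (0.97 in normoxia and 0.59 in hypoxia). It was above that in normoxia for SHISA2, CYP27A1, ASB2 and TPRA1 (0.62 and 0.91). Among the genes other than SHISA2, none of these differences passed a test of the difference itself. For SHISA2 no such test is given, since it was chosen by the ITE contrasts compared. The interaction of ITE and oxygen had 0 of 11735 genes past the threshold in edgeR (374 at an unadjusted p under 0.05). DESeq2, which applied its own filter, also called 0 genes. For SHISA2 the interaction was 0.09 on the log2 scale (SE 0.19, 95% interval -0.30 to 0.49), an interval that holds both a smaller and a larger response in hypoxia. Its sign turned with corrections for GC content and gene length (-0.07).

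On the linear scale ITE added 164 CPM of SHISA2 in normoxia and 199 CPM in hypoxia. The mean with both hypoxia and ITE was 442 CPM, and the normoxia + DMSO mean plus the increases seen with each alone came to 406 CPM. The difference of these values is smaller than the SD of hypoxia + ITE (100 CPM).

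**Figure D3:**
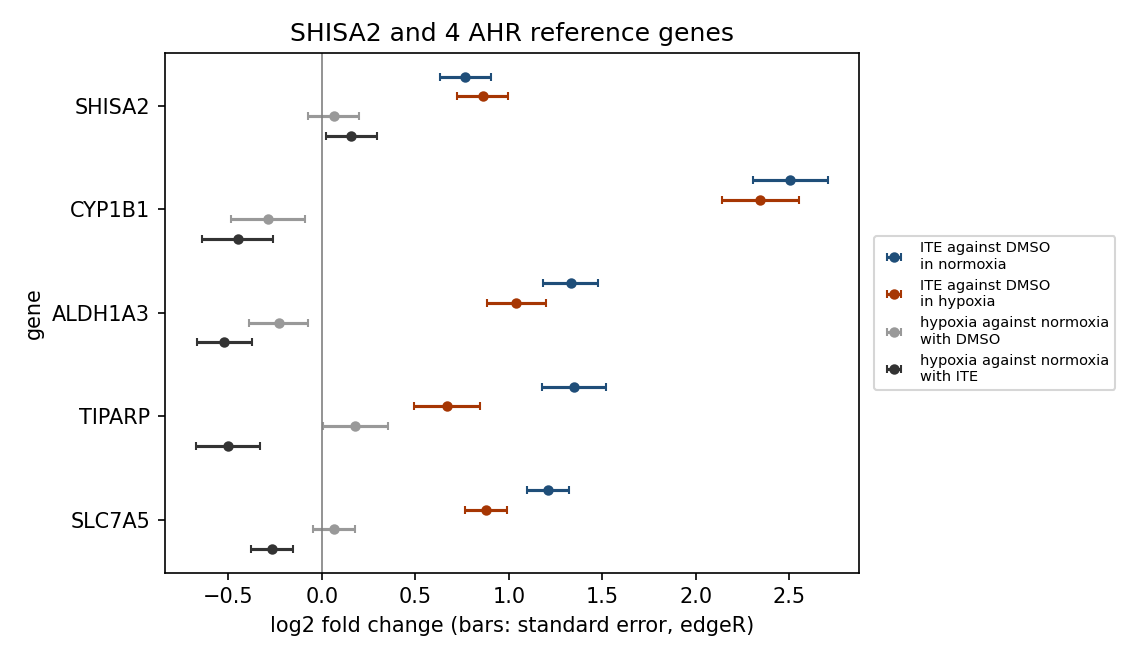
Log2 fold changes (horizontal axis) of SHISA2 and 4 genes responding to ITE (vertical axis) in the 4 comparisons between groups. Points are edgeR estimates and bars are standard errors. SHISA2 has similar ITE estimates at both oxygen levels (0.77 and 0.86) and oxygen estimates of 0.06 and 0.16.

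Whether oxygen itself altered SHISA2 was tested with the hypoxia effect averaged over DMSO and ITE, a contrast that is statistically separate from the ITE contrasts. SHISA2 was 1.08-fold higher in hypoxia (log2 fold change 0.11, SE 0.10, 95% interval -0.09 to 0.31), which did not pass (edgeR adjusted p = 0.523, unadjusted p = 0.265). A two-sided exact permutation test on log2 CPM, with the 853776 rearrangements of the oxygen labels within DMSO and within ITE, gave a difference of 0.095 and p = 0.336. The interval for the fold ran from 0.941 to 1.24. In the same comparison 588 genes (5.01%) passed, 393 higher and 195 lower.

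Within DMSO the oxygen effect on SHISA2 was 0.06 (SE 0.14, 95% interval -0.22 to 0.34, edgeR adjusted p = 0.933), and 3 of 6 same-numbered pairs were higher in hypoxia. Within ITE it was 0.16 (SE 0.14, -0.12 to 0.44, adjusted p = 0.536), and 4 of 6 pairs were higher. These comparisons share libraries with the ITE contrasts. They called 152 (1.3%) and 276 (2.35%) of 11735 genes. In no alternative fit, and with no library left out, did SHISA2 pass an oxygen comparison.

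No other gene of the Shisa family passed any comparison. The comparisons called 0.0511% to 5.01% of all genes, so a family with 3 other tested genes would usually hold no call. Of the 11 family symbols, including KIAA1644, FAM159A and FAM159B (now SHISAL1, SHISAL2A and SHISAL2B), SHISA2 and 3 others were tested. SHISA5, a p53-responsive member of the endoplasmic reticulum, averaged 104 CPM in normoxia + DMSO, 104 in normoxia + ITE, 98.3 in hypoxia + DMSO and 117 in hypoxia + ITE. SHISA9, known as an AMPA receptor auxiliary protein, averaged 181, 197, 165 and 171 CPM in the same order, and SHISA4 12.7, 13.8, 16.0 and 15.1 CPM.

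With ITE the log2 fold changes of SHISA4, SHISA5 and SHISA9 ran from -0.01 to 0.12 in normoxia and from -0.01 to 0.24 in hypoxia. Per kilobase of exon in normoxia + DMSO, SHISA2 at 60.7 CPM per kb stood above SHISA5 (24.03 ± 1.17), SHISA9 (17.8 ± 2.16) and SHISA4 (6.66 ± 1.29). SHISA8, FAM159A and FAM159B had no count in any library, SHISA6 had 1 count in all, and SHISA3, SHISA7 and KIAA1644 had at most 39 counts in a library. SHISA2 was thus the family transcript with the highest level per length in these cells, a description only, since it was chosen as an abundant gene.

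Wnt and FGF receptors and co-receptors were next described at the RNA level. They include the Frizzled and FGF receptors, the classes held back by the founding Shisa protein of Xenopus, and others besides. Of 16 Wnt receptors and co-receptors 12 were tested. None of them passed with ITE in normoxia or hypoxia, where 0.0511% and 0.0597% of all genes did. The median log2 fold change of the 12 was -0.05 in normoxia and -0.06 in hypoxia, against 0.00 and 0.02 over all genes tested. LRP5 and LRP6, the co-receptors of canonical Wnt signalling, differed by 0.02 (SE 0.17) and 0.03 (SE 0.19) with ITE in normoxia. FZD6, at 78.5 CPM in normoxia + DMSO, differed by 0.09 (SE 0.20), and FZD2 by -0.08 (SE 0.14). In hypoxia LRP5, LRP6, FZD6 and FZD2 differed with ITE by 0.19 (SE 0.18), -0.22 (SE 0.20), -0.20 (SE 0.20) and 0.15 (SE 0.14).

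FZD4, FZD5 and FZD7 differed by -0.33 (SE 0.19), 0.14 (SE 0.23) and 0.23 (SE 0.17) with ITE in normoxia, and by -0.07 (SE 0.20), 0.03 (SE 0.25) and 0.24 (SE 0.17) in hypoxia. FZD1 passed in the averaged oxygen comparison, 0.56 higher in hypoxia (SE 0.14, edgeR adjusted p = 0.0169), while its ITE estimates were -0.12 and -0.13. It was the only one of the 12 to pass any of the 5 comparisons, a share of 1 in 12 in a comparison that called 5.01% of all genes.

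Of 7 FGF receptors and co-receptors 6 were tested. None of them passed any comparison, in comparisons that called 0.0511% to 5.01% of all genes. With ITE the median log2 fold change of the 6 was -0.17 in normoxia and -0.25 in hypoxia, against 0.00 and 0.02 over all genes tested. FGFR1, at 134 CPM in normoxia + DMSO, differed by -0.08 (SE 0.14) in normoxia and 0.16 (SE 0.14) in hypoxia. FGFR2 differed by -0.57 (SE 0.29) and -0.32 (SE 0.30), and FGFR3 by -0.54 (SE 0.26) and -0.23 (SE 0.27). FGFR4 differed by -0.27 (SE 0.16) and -0.28 (SE 0.16), and the decoy receptor FGFRL1 by -0.05 (SE 0.13) and 0.11 (SE 0.13). In a fit of the normoxia libraries alone with the replicate number as a block, 3 of the 6 were called lower with ITE, in a fit that called 255 genes in all against 6 in the fit of all 24 libraries.

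**Figure D4:**
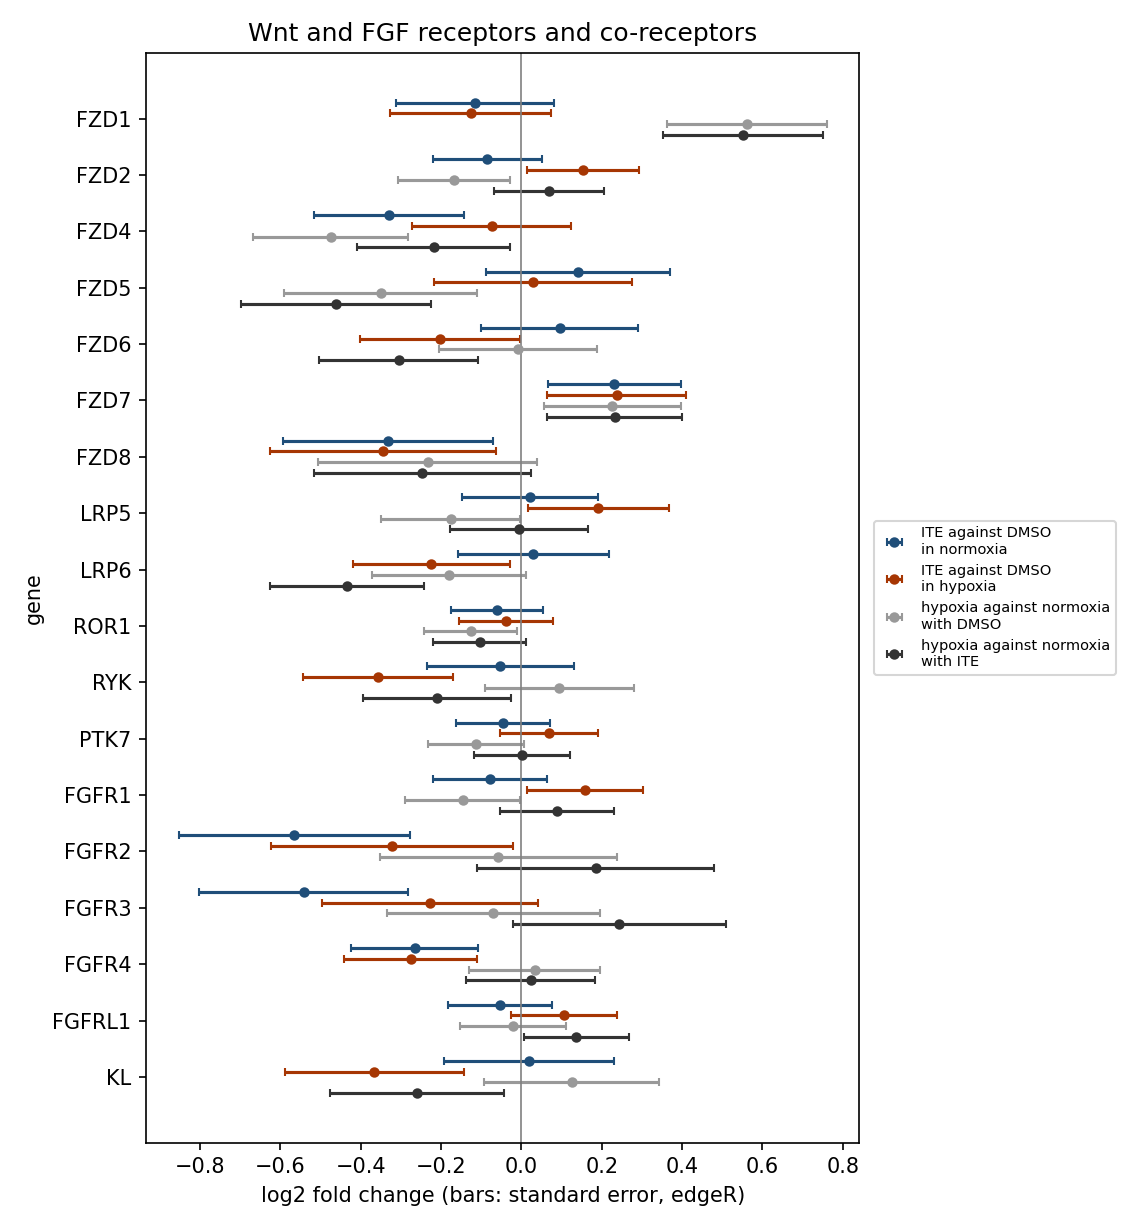
Log2 fold changes (horizontal axis) of the 12 Wnt and 6 FGF receptors and co-receptors tested (vertical axis) in the 4 comparisons between groups. Points are edgeR estimates and bars are standard errors. The oxygen estimates of FZD1 are 0.56 with DMSO and 0.55 with ITE, and no receptor passed any of the 4 comparisons plotted.

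No ligand or transcriptional readout of these pathways passed with ITE, which called only 0.0511% of all genes in normoxia and 0.0597% in hypoxia. At those shares a short list would usually hold no call. Of 21 Wnt ligands and secretion factors 8 were tested, of 15 secreted or membrane Wnt antagonists 5, and of 12 Wnt feedback targets 5 (AXIN2, ZNRF3, LGR4, SP5 and TNFRSF19). None of these 18 genes passed any comparison. With ITE the median log2 fold changes of the 3 lists were -0.02, 0.01 and -0.05 in normoxia and 0.21, 0.31 and 0.02 in hypoxia. AXIN2, a direct target of β-catenin, had 2.66 CPM in normoxia + DMSO against 2.21 CPM when ITE was added.

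Among 22 FGF ligands 5 were tested, with none past the threshold for ITE. FGF11, an intracellular FGF homologous factor, was higher in hypoxia by 1.29 with DMSO (adjusted p = 0.0145) and by 1.39 with ITE (adjusted p = 0.00654). Among 16 feedback targets of FGF and MAPK signalling 13 were tested, with none past the threshold for ITE. SPRY1, a Sprouty inhibitor of receptor tyrosine kinase signalling, averaged 0.294 CPM in normoxia + DMSO and 5.32 CPM in hypoxia + DMSO. No normoxia library exceeded 0.446 CPM, so the gene passed the count filter only through its hypoxia libraries. Its log2 fold changes of 4.02 with DMSO and 3.37 with ITE start from a level near the floor. They are given as a description, without a test. EGR1, an immediate early gene, averaged 2.64 CPM in normoxia + DMSO and 0.637 CPM in hypoxia + DMSO. No hypoxia + DMSO library exceeded 1.11 CPM, and the lowest hypoxia + ITE library had 0.483 CPM. EGR1 thus passed the count filter only with its normoxia libraries. Its log2 fold change of -1.37 in hypoxia averaged over DMSO and ITE (SE 0.34) is likewise a description, without a test. The median ITE log2 fold changes were -0.07 and -0.04 for the ligands and -0.10 and -0.10 for the feedback targets, in normoxia and hypoxia.

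Of 21 listed genes of the AHR pathway, SHISA2 not among them, 15 were tested. The list includes genes picked with earlier results of these libraries known and is not independent evidence of a direction. With ITE, 4 passed in normoxia (CYP1B1, TIPARP, ALDH1A3 and SLC7A5) and 5 in hypoxia (CYP1B1, ALDH1A3, SLC7A5, CYP27A1 and ASB2), all of them higher. Over all genes tested the shares were 0.0511% in normoxia and 0.0597% in hypoxia. CYP27A1, a mitochondrial sterol hydroxylase, differed by 1.10 in normoxia (adjusted p = 0.173) and rose by 1.40 in hypoxia (adjusted p = 0.0434). ASB2, a substrate adaptor of a ubiquitin ligase, differed by 0.92 (adjusted p = 0.297) and rose by 1.31 (adjusted p = 0.0319). Both lost the call in hypoxia in several of the alternative fits.

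The receptor itself, AHR, averaged 34.8 and 35.6 CPM in normoxia without and with ITE and 40.0 and 28.7 CPM in hypoxia, and ARNT averaged 36.6 and 34.2, then 31.8 and 30.1 CPM. Neither passed any comparison. In hypoxia averaged over DMSO and ITE, ALDH1A3 and BMF, a pro-apoptotic BH3-only gene, fell by 0.38 (adjusted p = 0.0368) and 1.15 (adjusted p = 0.0319). SHISA2 had 0.11 in the same averaged comparison and did not pass.

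No tested chromosomal neighbour of SHISA2 passed with ITE or with oxygen, in comparisons that called 0.0511% to 5.01% of all genes. Of the 5 nearest genes with a row in the count tables on each side, 7 were tested, MTMR6, NUPL1 (now NUP58), ATP8A2, RNF6, CDK8, WASF3 and USP12. AMER2, RNU6-78 and GPR12 had no count in any library. The nearest tested gene, ATP8A2, a phospholipid flippase on the opposite strand whose last base is 18745 bases from the end of SHISA2, differed by 0.23 with ITE in normoxia (SE 0.24) and by 0.24 in hypoxia (SE 0.25). RNF6, an E3 ubiquitin ligase 80098 bases upstream, differed by 0.04 (SE 0.12) and -0.17 (SE 0.12).

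Over the 24 libraries, the genes whose log2 CPM was most like that of SHISA2 were CYP1B1 (Pearson r = 0.82), SLC7A5 (0.75), SEPHS1 (0.72), ALDH1A3 (0.71) and ASB2 (0.70). These points share libraries, depth and the ITE groups by which SHISA2 was chosen, and the correlations are given as a description. When each library was instead expressed as its deviation from its group mean, a different set led. The highest values were those of MDM4 (0.81), CELF1 (0.80), ANKRD12 (0.78), NOL9 (0.77) and RBPJ (0.75), while the r was 0.05 for CYP1B1, -0.18 for ALDH1A3, -0.43 for SLC7A5 and -0.50 for TIPARP. Within groups, therefore, libraries with more SHISA2 were not those with more of the ITE reference genes. Library composition also varies within groups, and its part in these correlations was not tested.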

How the data were processed

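Raw counts for each gene symbol in each of 24 libraries were deposited by the authors (poly-A RNA, directional paired-end libraries). Per the labels and methods, reads were trimmed with Trim Galore 0.3.3, aligned to GRCh37 with HISAT2 (version 2.05 in the submitters' notes), cleared of fragments that mapped to more than 1 place with Picard 2.0.1, and counted over UCSC genes with HTSeq 0.5.4p3 in its intersection-strict mode, and the strand setting is not given in the sources used here. SHISA2 and the gene lists were chosen with earlier results of these data known. Counts were scaled by TMM, filtered with filterByExpr (minimum count 10; 11735 of 23106 symbols kept) and fitted with edgeR 4.0.16 (quasi-likelihood test, 1 mean per group, all 24 libraries, R 4.3.3), with Benjamini-Hochberg adjustment over all genes tested and a threshold of 0.05. Log2 CPM used a prior count of 2. Likeness is Pearson's r over log2 CPM. Exact permutation used scipy 1.17.1. Alternatives used DESeq2 1.42.0, limma 3.58.1, other scaling factors and filters, GC and length offsets (known for 97.4% of genes tested), a replicate block and left-out libraries. The fit was tested on simulated data. The genes named were SHISA2, its family, listed genes past the threshold, receptors with a mean of at least 5 CPM, 5 neighbours on each side, the 5 genes most like SHISA2 by each measure, and reference genes. Other genes past the threshold with ITE at either oxygen level were named as well. The result of 1 listed gene in the oxygen comparisons is not reported here. Coordinates and exon lengths are from GENCODE on GRCh37, matched by symbol for 20098 symbols and through a RefSeq synonym for 1449, with 1559 unmatched. Promoter shares are from the RefSeq table on GRCh38.p14. No 2 libraries had identical counts. With totals of 770094 to 93851342 counts, intervals on a single library cover counting error only.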

Additional observations from a re-analysis of the deposited data

Results flagged for a closer look

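Dixon's ratio was examined in 44 groups of 6 libraries, for SHISA2, the 3 other Shisa genes tested and 7 reference or called genes. No group of SHISA2 exceeded the critical ratio. One group did: ALDH1A3 was at 23.8 CPM in normoxia + ITE replicate 5, below the other 5 libraries at 29.9 to 32.4 CPM (ratio 0.707). SHISA2 also had its lowest value of that group, 339 CPM, in this library. Chance alone flags about 1 group in 20, or 2.2 of 44.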

How the results depend on the processing

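For SHISA2, every alternative kept the direction of the ITE and oxygen comparisons and the side of the threshold of the oxygen comparisons, and the interaction turned negative with GC and length offsets (-0.07), with those offsets and the replicate block (-0.09), and without hypoxia + ITE replicate 3. Over the 12 alternatives the log2 fold change with ITE ran from 0.75 to 0.81 in normoxia and 0.72 to 0.89 in hypoxia, and that of oxygen from 0.03 to 0.14 with DMSO, 0.05 to 0.24 with ITE and, over 10 alternatives, 0.05 to 0.18 averaged (adjusted p 0.191 to 0.741). Fits of only the groups compared exist for comparisons of 2 groups, not for the averaged or interaction effect. Leaving out each library gave 0.71 to 0.82 and 0.75 to 0.95 for ITE in normoxia and hypoxia, 0.00 to 0.12 (DMSO), 0.05 to 0.24 (ITE) and 0.05 to 0.15 (averaged) for oxygen, and -0.01 to 0.18 for the interaction.

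Counts of genes called over all genes moved more. In hypoxia + DMSO against normoxia + DMSO the 152 became 251 with DESeq2, 840 with sample quality weights, 244 with GC and length offsets (314 with the block), 233 with only the groups compared (258 with the block) and 112 to 303 with a library left out. In hypoxia + ITE against normoxia + ITE the 276 became 683 with DESeq2, 605 with quality weights, 475 without the 2 shallowest libraries, 85 with only the groups compared (55 with the block) and 159 to 811 with a library left out. Averaged over DMSO and ITE the 588 became 1096, 1533 with quality weights, 1043 with offsets and block, and 412 to 1021. For ITE in normoxia the 6 became 14 with DESeq2, 112 with quality weights, 10 with offsets (19 with the block), 30 with only the groups compared (255 with the block) and 4 to 13. For ITE in hypoxia the 7 became 3 with offsets, 4 without the 2 shallowest libraries, 1 with only the groups compared with or without the block, and 4 to 8. The causes were not tested.

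The replicate block, over all 24 libraries, gave SHISA2 0.78 and 0.84 for ITE, 0.11 for averaged oxygen (adjusted p = 0.478) and 0.06 for the interaction, and called 13 genes for ITE in normoxia. Same-numbered libraries were alike only in part. In no pair of groups did all 6 correlations of deviations exceed 0.1, the counts running from 2 (hypoxia groups) to 5 (normoxia groups). FGF11 lost its call in hypoxia with DMSO without hypoxia + DMSO replicate 6. In the averaged oxygen comparison, with a library left out, ALDH1A3 lost its call in 12 of 24 fits and BMF in 7. With ITE in hypoxia, ALDH1A3 lost its call in 2 and SLC7A5 in 4 of 12 alternatives, and the AHR list had 1 to 5 genes higher there and 4 to 9 in normoxia. CYP27A1 lost its call with ITE in hypoxia in 4 of 12 alternatives and in 19 of 24 fits with a library left out, and ASB2 in 5 of 12 and 9 of 24.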

Other observations

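Chosen after its values were seen, PORCN, the acyltransferase that lipid-modifies Wnt ligands for secretion, was the listed Wnt gene whose log2 CPM was most like that of SHISA2 over the 24 libraries (r = 0.69, and 0.51 for deviations from the group means, given as a description). It averaged 23.8 CPM in normoxia + DMSO, 29.5 in normoxia + ITE, 23.7 in hypoxia + DMSO and 29.99 in hypoxia + ITE. Its log2 fold changes with ITE were 0.31 (SE 0.14) and 0.38 (SE 0.14) and did not pass (edgeR adjusted p = 0.9998 and 0.494).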
